A study of Mus musculus with 20 samples.

Results

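The genes described here are 42 mouse genes that interferons switch on, listed by gene symbol and grouped by what their products do: transcription factors, sensors of viral nucleic acids, the IFIT, OAS and ISG15 families, other antiviral effectors, 2 families of interferon-induced GTPases and 7 further induced genes. All 42 were found among the 35226 genes of the deposited count table, and all 42 passed the filter on low counts that left 16665 genes to test. The counts come from tumors of LLC1 cells, a mouse Lewis lung carcinoma line, injected under the skin of adult male C57Bl6/J mice, so each sample mixes grafted carcinoma cells with host cells. Mice received vehicle, KW6002 (istradefylline, an antagonist of the adenosine receptor encoded by Adora2a), cisplatin (a platinum drug that damages DNA) or both agents, called cotreatment, and each group holds 5 tumors. Vehicle tumor 1 is labelled vehicle and tumors 2 to 5 vehicle_vehicle, and all 5 were taken as 1 group. No group carried a gene deletion or a transgene, and fewer cells of a type and less RNA per cell cannot be told apart in such bulk RNA.

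Interferons are secreted signals of infection and of misplaced nucleic acids. Type I interferons bind a receptor whose kinases activate STAT2, which joins IRF9 in a complex that binds the interferon-stimulated response element (ISRE). Interferon gamma acts mainly through gamma-activated sites (GAS), and IRF7 and IRF1 carry the response further. In tumors the response is known from both cancer cells and infiltrating myeloid cells, and it accompanies antigen presentation and T cell recruitment.

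Libraries held 28.4M to 41M counts, and no pair of replicates was so alike as to be 1 library deposited again. Each sample label also carries a library code, whose meaning it does not give, and the codes fall into 2 runs with a gap between them. The earlier run holds vehicle tumor 1, KW6002 tumors 1 and 2, cisplatin tumors 1 and 2 and cotreated tumors 1 to 3, and the later run holds the other 12 tumors. Transcripts of the carcinoma and proliferation list (Mki67, Krt8 and Vim among them) summed to 4144 to 6257 CPM (each library's counts scaled to the same total) in the 20 tumors, while Epcam did not pass the filter. KW6002 tumor 1 stood apart, since its B cell markers summed to 55.4 CPM against 3.50 to 6.39 CPM in the other 19 tumors, its T and natural killer cell markers to 42.2 CPM against 3.99 to 22.5 CPM and its neutrophil markers to 153 CPM against 15.5 to 123 CPM. It was also the tumor with the highest value for 34 of the 42 genes, so the counts and medians of comparisons with KW6002 are given with and without it. Fat markers summed to 233 CPM in vehicle tumor 2, against 21.2 to 33.1 CPM in the other vehicle tumors, and their part in the results was not tested.

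Promoter windows in the RefSeq tables, which run from 250 bases before to 50 bases after the start of a gene (build GRCm38.p6), were at hand for 31 of the 42 genes. They were searched on both strands for the core of the ISRE, GAAANNGAAA, and for the GAS, TTCNNNGAA, where N is any base and matches may overlap each other. Some genes have more than 1 window, and a gene was counted where any of its windows held the motif. The ISRE core was present in 20 of the 31 genes (64.5%), against 3.99% of 27025 genes with a window, and the GAS in 10 (32.3%) against 9.55%. Both motifs were present in 7 of the 31 genes (22.6%) against 0.540% of genes. All 4 guanylate-binding protein genes with a window (Gbp2, Gbp3, Gbp5 and Gbp7), all 3 immunity-related GTPase genes (Igtp, Irgm1 and Irgm2) and all 3 sensor genes (Ddx58, Eif2ak2 and Ifih1) held an ISRE core, compared with 1 of 4 transcription factor genes (Stat2) and 1 of 5 further induced genes (Trim30a). A match is a description of the letters and not evidence of binding.

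The stretches below hold the motifs of 11 genes from the families that changed with treatment, printed 5′ to 3′ in the direction of transcription, with each base of an ISRE core or GAS match in capitals. The Isg15 stretch lies at chr4:156200860-156200911 on the minus strand and carries 3 overlapping ISRE cores. Those of the Ifit genes lie at chr19:34640770-34640828 (Ifit1), chr19:34583358-34583431 (Ifit3) and chr19:34607754-34607827 (Ifit3b), all on the plus strand. Rsad2 is shown at chr12:26456548-26456587, Oas1a at chr5:120907526-120907638 and Irgm1 at chr11:48871421-48871465, all on the minus strand. Gbp2 is shown at chr3:142620589-142620628, Gbp7 at chr3:142530215-142530307, Igtp at chr11:58199496-58199546 and Irgm2 at chr11:58214887-58214937, all on the plus strand.
Isg15: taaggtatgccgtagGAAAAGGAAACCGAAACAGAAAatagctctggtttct
Ifit1: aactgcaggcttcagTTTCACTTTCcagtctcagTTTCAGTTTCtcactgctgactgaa
Ifit3: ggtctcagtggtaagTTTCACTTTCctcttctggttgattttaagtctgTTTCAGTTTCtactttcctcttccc
Ifit3b: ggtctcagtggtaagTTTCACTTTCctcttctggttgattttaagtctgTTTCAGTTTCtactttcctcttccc
Rsad2: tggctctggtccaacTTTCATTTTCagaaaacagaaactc
Oas1a: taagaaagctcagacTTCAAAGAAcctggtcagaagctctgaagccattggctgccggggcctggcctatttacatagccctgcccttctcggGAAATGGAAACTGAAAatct
Irgm1: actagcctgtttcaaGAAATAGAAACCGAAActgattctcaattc
Gbp2: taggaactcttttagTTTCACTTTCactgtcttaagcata
Gbp7: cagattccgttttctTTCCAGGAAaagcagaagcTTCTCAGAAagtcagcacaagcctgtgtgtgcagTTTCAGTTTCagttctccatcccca
Igtp: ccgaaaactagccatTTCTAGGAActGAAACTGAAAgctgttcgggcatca
Irgm2: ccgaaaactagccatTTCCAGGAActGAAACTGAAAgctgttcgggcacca

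The Ifit3 and Ifit3b stretches are the same letter for letter, and the windows of these neighbouring copies share 201 of 268 aligned bases (75.0%). Igtp and Irgm2 share 184 of 270 bases (68.1%), and their annotated spans overlap on the same strand. The counting drops reads on exons that both genes hold, and how many were dropped was not measured. Values of Ifit3 and Ifit3b, of the Oas and Gbp families and of Igtp and Irgm2 are therefore uncertain where reads could belong to a near copy.

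Among vehicle tumors, the level per kilobase of exon ranged 64.3-fold, from 0.715 CPM per kilobase for Mx2 to 45.9 for Bst2, which encodes the membrane protein tetherin. Across the 20 tumors, Ifit3b spanned 36.1-fold, Ifit1 25.9-fold, Rsad2 14.3-fold and Isg15 12.9-fold between the lowest and the highest CPM. Ifi35 and Eif2ak2 spanned 1.46-fold and 1.49-fold. Most of the genes moved together from tumor to tumor: on the log2 scale, the correlation (Pearson's r) of a gene with the mean of the other 41 had a median of 0.93 over 20 tumors and was above 0.8 for 34 genes. It was lowest for Ifi204 (-0.0053), Eif2ak2 (0.22), which encodes the double-stranded RNA-activated kinase PKR, and Ifi35 (0.33). After the mean of each treatment group was subtracted, the median was 0.81, 23 genes were above 0.8, and the value was -0.50 for Eif2ak2, 0.10 for Ifi35, 0.29 for Irf1 (0.83 without the subtraction) and 0.65 for Ifi204. These correlations are descriptions over tumors that share treatments, library codes and depth.

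**Figure D1:**
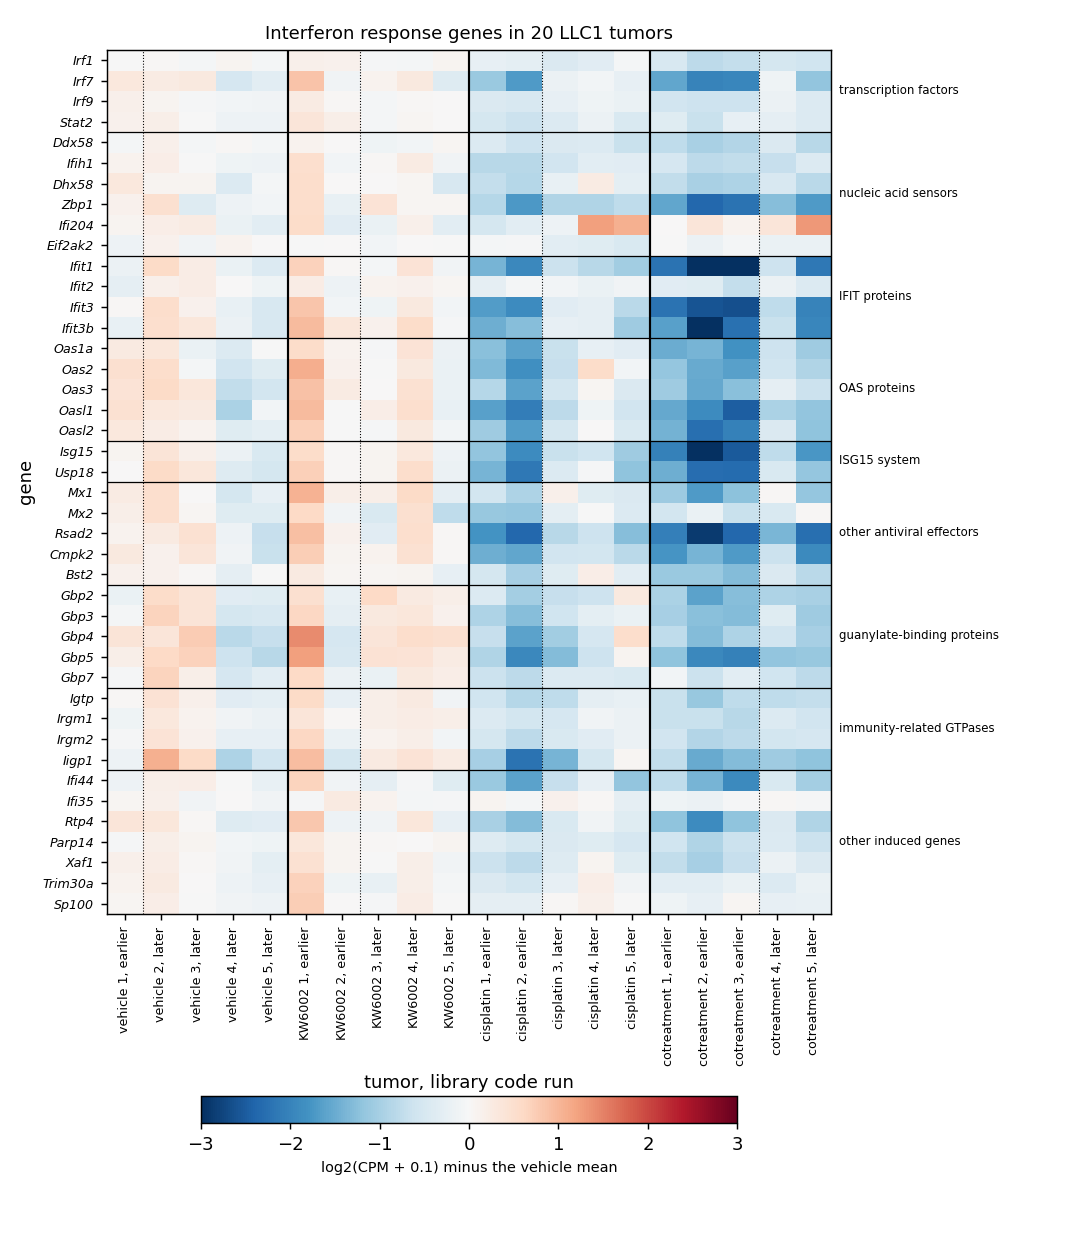
Each of the 42 genes (rows, by role) in each of the 20 tumors (columns), as log2(CPM + 0.1) minus the mean of the vehicle tumors, with solid lines between treatment groups and dotted lines between library code runs. KW6002 tumor 1 holds the highest value of 34 genes, and cotreated tumors 2 and 3 hold the lowest value of 19 and 10 genes.

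As a summary, the 42 values of a tumor were averaged on the log2 scale, relative to the vehicle mean. This mean level was 0.00 ± 0.29 (SD, n = 5) in vehicle tumors, 0.16 ± 0.29 with KW6002, -0.61 ± 0.38 with cisplatin and -1.0 ± 0.34 with cotreatment. Vehicle tumors ranged from -0.30 to 0.35 and cotreated tumors from -1.37 to -0.52, so the groups did not overlap. Cisplatin tumors ranged from -1.17 to -0.20 and overlapped both vehicle and cotreated tumors. Within the library codes, the mean was -1.0 in the 2 cisplatin tumors with earlier codes and -0.36 in the 3 with later codes, and -1.20 in 3 and -0.70 in 2 cotreated tumors.

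**Figure D2:**
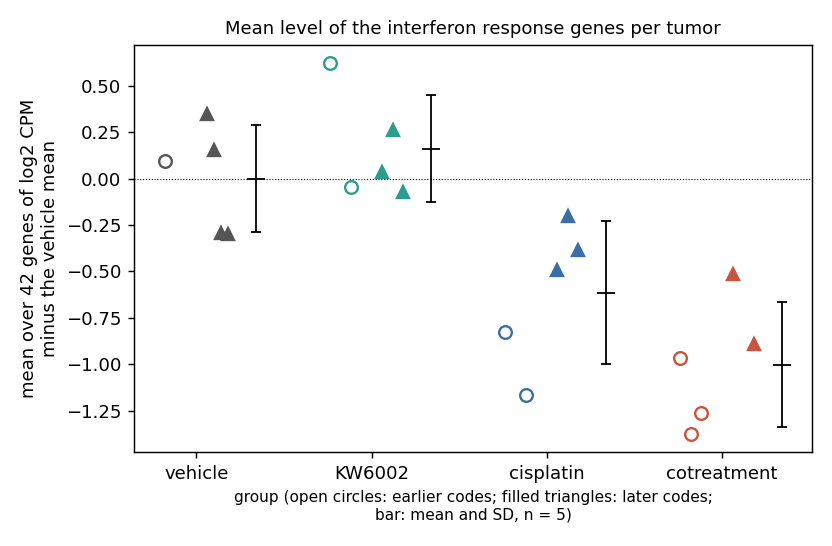
Mean of the 42 genes in each tumor (log2 scale, relative to the mean of the vehicle tumors), by treatment group and library code run. Cotreated tumors lie between -1.37 and -0.52 and vehicle tumors between -0.30 and 0.35.

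Compared with vehicle-treated mice, none of the 42 genes passed the test in mice given KW6002 alone. A gene was called where edgeR's quasi-likelihood test gave a Benjamini-Hochberg adjusted p below 0.05 over all 16665 genes and a log2 fold change of at least 0.32 in size. Under this rule 0% of all genes were called in either direction for KW6002 against vehicle. No member had an unadjusted p below 0.05, and DESeq2 called 0 members as well. The median log2 fold change of the 42 was 0.16 (median of all genes -0.0034), 3 members were below zero, and without KW6002 tumor 1 the count was 0 and the median 0.03. Irf1 measured 106, 105, 93.9, 92.0 and 102.01 CPM with KW6002 and 95.5, 97.2, 91.9, 101.4 and 92.3 CPM with vehicle, a difference of 0.06 on the log2 scale (95% interval -0.08 to 0.20). Isg15 measured 22.8, 15.8, 16.3, 19.4 and 13.8 CPM with KW6002 against 16.5, 20.3, 17.2, 13.6 and 11.3 CPM with vehicle, and its interval was wider (0.16, -0.51 to 0.83). For both genes the tumors of the 2 groups overlapped. P-values throughout measure the spread between the tumors as deposited.

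Compared with vehicle, cisplatin lowered 14 of the 42 genes and raised none, while 4.57% of all tested genes were called lower. The 14 were Stat2, the sensors Ddx58, Ifih1 and Zbp1, Oas1a, Isg15, Rsad2, Cmpk2, Gbp7, Igtp, Irgm1, Irgm2, Ifi44 and Parp14. The median log2 fold change of the 42 was -0.58, against 0.0004 for all genes, and 41 members were below zero. In 10 members every cisplatin tumor was below every vehicle tumor, a pattern seen in 5.12% of all genes. Leaving out 1 tumor took the 14 calls to 9, 7 and 7 without vehicle tumors 1, 2 and 3, and to 8, 7 and 9 without cisplatin tumors 1, 2 and 3. The calls of Stat2, Ddx58, Ifih1, Zbp1, Rsad2, Cmpk2 and Parp14 remained whichever tumor was left out. Among the tumors with later codes alone, 5 members were called. With separate code terms 28 were called (median -1.14), and that difference is the one at earlier codes. Vehicle tumor 1 is the only vehicle tumor there. The 4.57% above belongs to the main fit, and no share is given for these alternatives. With no count filter 8 were called, and 1 in a test against the fold limit itself (glmTreat).

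Of the transcription factors, Stat2, a subunit of the ISRE-binding complex, was the member that passed. It measured 51.4, 52.6, 46.6, 42.3 and 41.8 CPM with vehicle and 32.6, 30.0, 34.9, 41.5 and 34.1 CPM with cisplatin, so all cisplatin tumors lay below all vehicle tumors, if narrowly. Stat2 fell by 0.44 on the log2 scale (SE 0.10, edgeR adjusted p = 0.00406), to 73.7% of the vehicle mean. Irf9, the DNA-binding subunit of the same complex, measured 37.0, 35.5, 32.7, 31.7 and 31.0 CPM with vehicle and 24.8, 24.1, 28.1, 30.5 and 29.1 CPM with cisplatin. Its log2 fold change of -0.30 (SE 0.09, edgeR adjusted p = 0.0253) lay within the fold limit, although its groups did not overlap either. Irf1, an activator shared by both interferon pathways, likewise had a log2 fold change of -0.27 (SE 0.07, edgeR adjusted p = 0.0107), from 95.7 ± 3.88 to 79.6 ± 7.63 CPM (SD, n = 5). Irf7, the factor that amplifies type I interferon production, measured 22.0, 20.9, 21.6, 12.4 and 14.2 CPM with vehicle and 8.12, 5.41, 15.7, 16.7 and 15 CPM with cisplatin. Here the 2 groups overlapped and the difference of -0.58 (SE 0.37) did not pass (edgeR adjusted p = 0.303). The 2 low cisplatin tumors were those with earlier codes.

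Among the sensors of nucleic acids, Ddx58 (RIG-I, a sensor of viral RNA) had the smallest adjusted p of all 42 genes. Ddx58 measured 50.4, 59.0, 50.4, 53.9 and 50.4 CPM with vehicle and 39.7, 34.1, 38.9, 39.5 and 33.2 CPM with cisplatin, with a wide gap between the groups. It fell by 0.51 on the log2 scale (SE 0.09, edgeR adjusted p = 0.000431). Ifih1 (MDA5, the sensor of long double-stranded RNA) measured 9.67, 10.3, 8.91, 8.12 and 7.99 CPM with vehicle and 4.97, 4.98, 6.02, 7.18 and 7.03 CPM with cisplatin, again without overlap. Ifih1 fell by 0.58 (SE 0.13, edgeR adjusted p = 0.00598). Zbp1, which senses left-handed nucleic acids and can start necroptosis, measured 26.6, 34.0, 18.6, 21.9 and 22.8 CPM with vehicle and 13.3, 7.34, 12.9, 12.9 and 14.3 CPM with cisplatin. Zbp1 fell by 1.03 (SE 0.22, edgeR adjusted p = 0.00326) to 48.9% of the vehicle mean. The other 3 sensors did not pass: Dhx58, the RIG-I relative LGP2, had a log2 fold change of -0.34, Eif2ak2 one of -0.24 within the fold limit, and Ifi204, a DNA sensor of myeloid cells, one of 0.44, the only one above zero among the 42.

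Of the antiviral effectors, Isg15, a ubiquitin-like modifier, measured 6.70, 4.09, 9.74, 10.2 and 7.29 CPM with cisplatin, below every vehicle tumor. Isg15 fell by 1.05 (SE 0.33, edgeR adjusted p = 0.0346) to 48.2% of the vehicle mean, a call lost in 7 of the 20 fits that leave out 1 tumor. Rsad2 (viperin, which makes a chain-terminating nucleotide) fell by 1.31 (SE 0.33), and its neighbour Cmpk2, a mitochondrial nucleotide kinase, by 1.00 (SE 0.26). Within the IFIT family of RNA-binding proteins 0 of 4 genes were called by edgeR (median -0.90, 3 with an unadjusted p below 0.05). Within the OAS family, whose members make the oligoadenylates that activate RNase L or resemble those that do, Oas1a alone was called of 5 (median -0.69). Of the GTPases that act on pathogen-containing vacuoles, 1 of 5 guanylate-binding proteins (Gbp7, -0.59) and 3 of 4 immunity-related GTPases (Igtp -0.55, Irgm1 -0.35 and Irgm2 -0.47) fell. Parp14, an ADP-ribosyltransferase, measured 58.0, 67.2, 63.1, 56.7 and 54.3 CPM with vehicle and 45.9, 41.4, 44.1, 46.6 and 41.9 CPM with cisplatin. These values did not overlap, and Parp14 fell by 0.44 (SE 0.08, edgeR adjusted p = 0.000772).

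**Figure D3:**
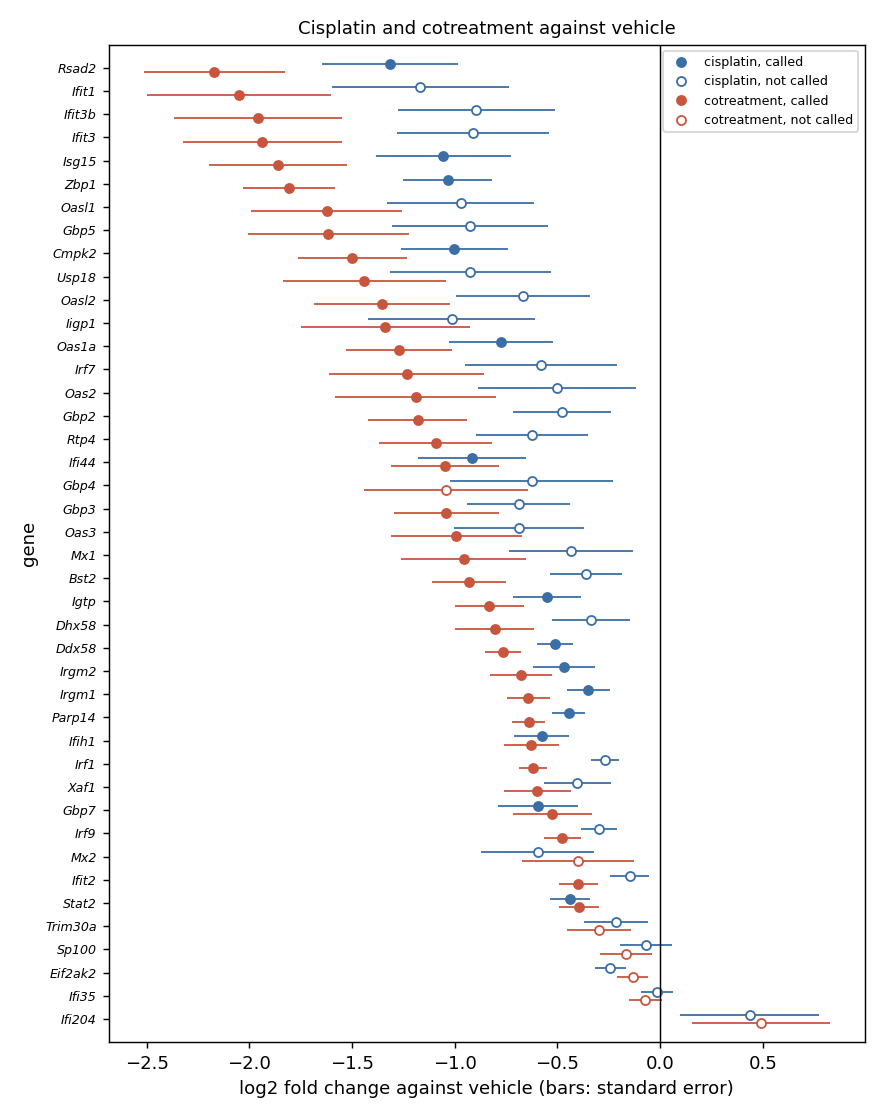
Log2 fold change against vehicle (± SE) of the 42 genes for cisplatin and for cotreatment, with filled symbols for called genes. With cisplatin 14 genes were called and with cotreatment 35, all of them lower.

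Compared with vehicle, cotreatment lowered 35 of the 42 genes and raised none, while 10.4% of all tested genes were called lower. The median log2 fold change was -0.97 against -0.016 for all genes, and 41 members were below zero. In 25 members every cotreated tumor lay below every vehicle tumor, as it did in 12.4% of all genes. All 4 transcription factors, 4 IFIT, 5 OAS and 2 ISG15 system genes and 4 immunity-related GTPases fell, as did 4 of 6 sensors, 4 of 5 other antiviral effectors, 4 of 5 guanylate-binding proteins and 4 of 7 further genes. The 7 members not called were Ifi204, Eif2ak2, Mx2, Gbp4, Ifi35, Trim30a and Sp100, of which Gbp4 came closest (log2 fold change -1.04, edgeR adjusted p = 0.0501). The count stayed between 30 and 36 when each tumor was left out, and 28 of the 35 calls remained in all 20 such fits. Among tumors with later codes alone, where 2 cotreated tumors meet 4 vehicle tumors, 16 members were called and the median was -0.59. The 10.4% above is from the fit of all tumors, and no share is given for this one.

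The changes of largest size with cotreatment were those of Rsad2 (log2 fold change -2.17, SE 0.34), Ifit1 (-2.05, SE 0.45), Ifit3b (-1.96, SE 0.41), Ifit3 (-1.94, SE 0.39) and Isg15 (-1.86, SE 0.34). All of these hold an ISRE core in the stretches printed above, as do 20 of the 31 genes with a window in theirs. The windows of Oasl1 and Oasl2, which also fell, hold none. Isg15 measured 3.74, 1.76, 2.59, 9.03 and 4.52 CPM in cotreated tumors, 27.5% of the vehicle mean, and cotreated tumor 4 was the highest of them. Rsad2 ranged from 1.93 to 5.67 CPM (median 2.99) with cotreatment and from 9.13 to 20.4 CPM (median 15.8) with vehicle, so that its groups were far apart. Ifit3 was at 26.0% and Ifit1 at 24.0% of the vehicle mean. Oasl1 (-1.62) and Oasl2 (-1.35) were the lowest of the OAS family, Gbp5 (-1.62) of the guanylate-binding proteins and Iigp1 (-1.34) of the immunity-related GTPases.

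The smallest adjusted p-values with cotreatment belonged to Irf1, Ddx58, Parp14, Zbp1 and Irgm1. Irf1 measured 68.3, 55.1, 58.5, 66.9 and 62.9 CPM with cotreatment, all below the vehicle tumors and all below the cisplatin tumors. Irf1 fell by 0.62 against vehicle (SE 0.07, edgeR adjusted p = 1.32e-06), to 65.1% of the vehicle mean. Ddx58 measured 31.1, 26.6, 28.8, 39.1 and 29.7 CPM and fell by 0.77 (SE 0.09, edgeR adjusted p = 1.65e-06). Parp14 measured 39.2, 32.1, 37.9, 44.7 and 38.1 CPM and fell by 0.64 (SE 0.08, edgeR adjusted p = 4.72e-06). In both genes cotreated tumor 4 was the highest cotreated tumor and still lay below all vehicle tumors. Zbp1 measured 8.15, 4.68, 5.15, 9.94 and 7.42 CPM and fell by 1.81 (SE 0.22, edgeR adjusted p = 7.06e-06), to 28.5% of the vehicle mean. Irgm1, a regulator of the vacuolar GTPases, measured 24.2, 24.2, 21.6, 29.0 and 26.1 CPM against 35.4, 48.1, 41.4, 36.0 and 34.4 CPM with vehicle, and fell by 0.64 (SE 0.10, edgeR adjusted p = 7.93e-05).

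The subunits of the ISRE-binding complex and Irf7 also fell with cotreatment. Stat2 measured 36.1, 29.6, 39.2, 38.8 and 35.1 CPM (log2 fold change -0.39, SE 0.10, edgeR adjusted p = 0.00334), close to its values with cisplatin alone. Irf9 measured 22.4, 21.8, 21.9, 29.6 and 25.1 CPM, all below the vehicle tumors, and fell by 0.48 (SE 0.09, edgeR adjusted p = 0.00032). Irf7 measured 5.92, 4.33, 4.50, 16.2 and 7.74 CPM and fell by 1.23 (SE 0.38, edgeR adjusted p = 0.0168). Cotreated tumor 4 lay among the vehicle tumors in Irf7, so these groups overlapped.

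**Figure D4:**
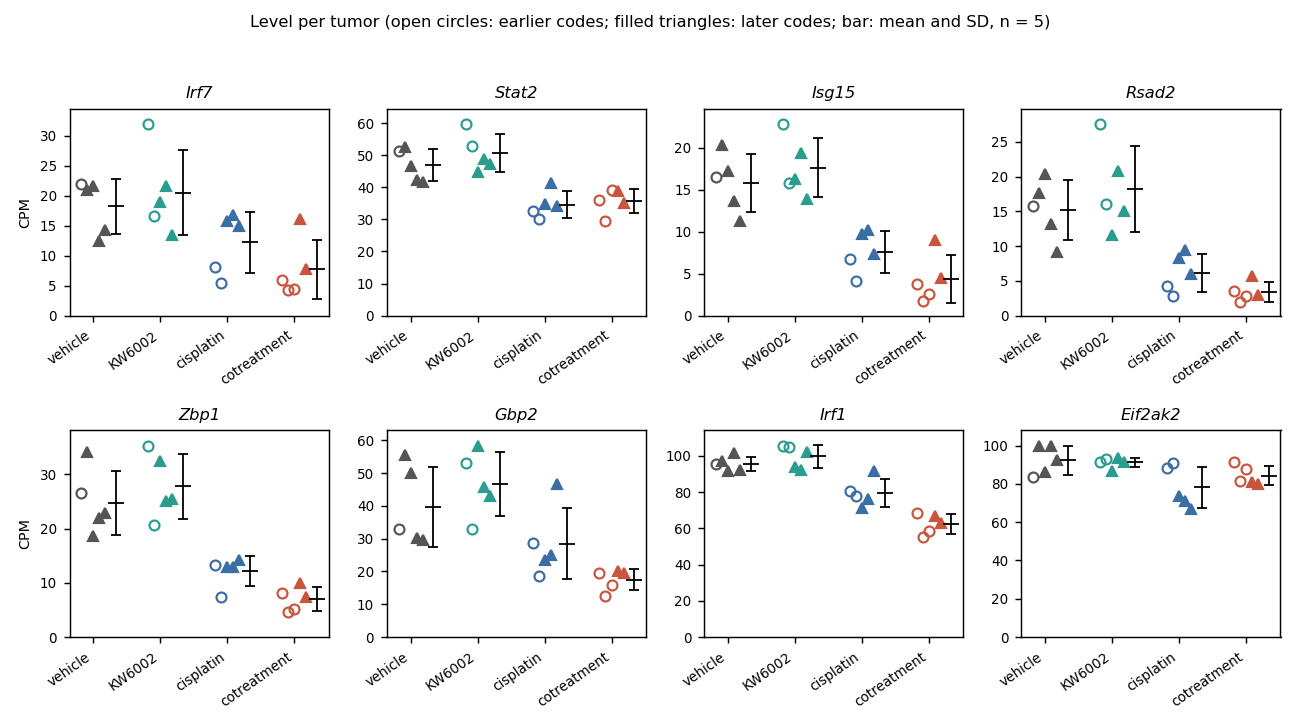
CPM of Irf7, Stat2, Isg15, Rsad2, Zbp1, Gbp2, Irf1 and Eif2ak2 in each tumor by treatment group, with open circles for earlier and filled triangles for later library codes and bars for the mean ± SD (n = 5). Zbp1 in cotreated tumors lies between 4.68 and 9.94 CPM, below all vehicle tumors, while Eif2ak2 overlaps between all groups.

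Direct comparison of cotreatment with cisplatin alone asks what KW6002 adds under cisplatin. Irf1 and Zbp1 were lower with cotreatment, 2 of the 42 genes against 1.71% of all genes called lower, and none was higher. Irf1 fell by 0.35 (SE 0.07, edgeR adjusted p = 0.00519) and Zbp1 by 0.77 (SE 0.22, edgeR adjusted p = 0.042). In Irf1 alone did the groups not overlap, a pattern seen in 2.5% of all genes. The median over the 42 was -0.35 against -0.0059 for all genes, 37 members were below zero and 13 had an unadjusted p below 0.05. The cisplatin and cotreated groups are not equally spread over the library codes, and within earlier codes alone or later codes alone 0 members were called, with medians of -0.12 and -0.31 (edgeR, 3 and 2 or 2 and 3 tumors a group). The log2 fold change of Irf1 was -0.38 at earlier and -0.30 at later codes (edgeR adjusted p = 0.0559 and 0.262), and that of Zbp1 -0.76 and -0.62 (edgeR adjusted p = 0.421 and 0.326). The count was 13 without cotreated tumor 4, 5 without cisplatin tumor 2, 0 without cisplatin tumor 5 or cotreated tumor 2, and 1 without any single one of vehicle tumors 1 and 5, KW6002 tumor 4, cisplatin tumors 1, 3 and 4 and cotreated tumors 1, 3 and 5. Zbp1 lost its call in 11 of these 20 fits and Irf1 in 2. Skeletal muscle markers summed to 1025 CPM in cotreated tumor 4 and to 3.59 to 75.3 CPM in the other cotreated tumors, and their part in these counts was not tested.

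Against KW6002 alone, cotreatment lowered 38 of the 42 genes (10.7% of all genes were called lower), with a median of -1.14. The log2 fold change was -0.68 (SE 0.07) for Irf1, -0.75 (SE 0.08) for Parp14, -0.76 (SE 0.09) for Ddx58, -1.97 (SE 0.22) for Zbp1 and -0.83 (SE 0.10) for Irgm1. Without KW6002 tumor 1 the count was 35 and the median -0.98, and among later codes alone it was 15 with a median of -0.65. This comparison and that with vehicle share the cotreated tumors. The interaction, which tests whether KW6002 changed a gene differently with and without cisplatin, called 0 members by edgeR and 0.066% of all genes in either direction. Its median was -0.52, 12 members had an unadjusted p below 0.05, DESeq2 called 1, and without cotreated tumor 4 edgeR called 2. Without KW6002 tumor 1 it called 0, with a median of -0.40. For Irf1 the interaction was -0.41 (95% interval -0.61 to -0.21, edgeR adjusted p = 0.0812) and for Isg15 it was -0.97 (95% interval -1.94 to 0.01).

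Library code runs were compared next, in a model with a term for later codes in both cisplatin arms (10 tumors) and another in both arms without it (10 tumors). Under cisplatin 18 of the 42 genes were higher at later codes and none was called lower, while 4.65% of all genes were called higher. The median difference was 0.58 on the log2 scale, against 0.0009 for all genes. All 5 OAS genes, both genes of the ISG15 system, 3 of 4 IFIT genes and 3 of 5 other effectors were higher, with Irf7, Dhx58, Ifi204, Rtp4 and Xaf1. None of the 5 guanylate-binding proteins and none of the 4 immunity-related GTPases passed (medians 0.58 and 0.26, with 1 unadjusted p below 0.05 in each family). Eif2ak2 went the other way with a difference of -0.23 (SE 0.06, edgeR adjusted p = 0.0177), within the fold limit. Without cisplatin 0 members were called by edgeR (0% of all genes in either direction), with a median of -0.18, 3 unadjusted p-values below 0.05 and 0 calls by DESeq2.

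The difference was largest in size in Ifit3, which encodes an RNA-binding IFIT protein. Among cisplatin tumors Ifit3 measured 2.44 and 2.08 CPM at earlier and 6.26, 6.62 and 4.51 CPM at later codes, and among cotreated tumors 1.64, 1.24 and 1.19 CPM at earlier and 4.68 and 1.93 CPM at later codes. The later tumors were higher in both arms, with a difference of 1.32 (SE 0.25, edgeR adjusted p = 0.00681). Irf7 was 1.26 higher (SE 0.23, edgeR adjusted p = 0.00687), with 8.12 and 5.41 CPM at earlier codes and 15 to 16.7 CPM at later codes in cisplatin tumors. Oas1a had the smallest adjusted p (0.90, SE 0.17, edgeR adjusted p = 0.00643), with 2.67 and 2.06 CPM at earlier and 4.05, 5.46 and 5.11 CPM at later codes in cisplatin tumors. In cotreated tumors Oas1a measured 2.25, 2.40 and 1.77 CPM at earlier and 4.21 and 3.06 CPM at later codes. Oasl2 (1.07, SE 0.21) and Bst2 (0.59, SE 0.12) had the next smallest adjusted p among the genes called, both at 0.00823 by edgeR. In Oasl2 the later cisplatin tumors measured 18.6, 27.3 and 19.8 CPM against 12.9 and 8.38 CPM at earlier codes.

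Every later tumor lay above every earlier tumor in 28 members among cisplatin tumors (22.7% of all genes do so), in 18 among cotreated tumors (16.2%) and in 16 in both arms (6.93%). In KW6002 tumors this held for 0 members, against 7.34% of all genes, but KW6002 tumor 1, which is highest in 34 members, has an earlier code. Without it, in a count added after these values were seen, it held for 11 members, against 23.5% of all genes. Vehicle holds a single tumor with an earlier code and cannot be compared in this way. The 18 calls came to 10 without cisplatin tumor 1 and to 5 without cisplatin tumor 2, both with earlier codes, and to 0 in the test against the fold limit (glmTreat). The calls of Irf7, Ifit3, Oas1a, Oasl2 and Bst2 remained whichever tumor was left out. Of the 13 called members with a promoter window 8 held an ISRE core and 2 a GAS, and of the 18 members not called 12 and 8 did.

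**Figure D5:**
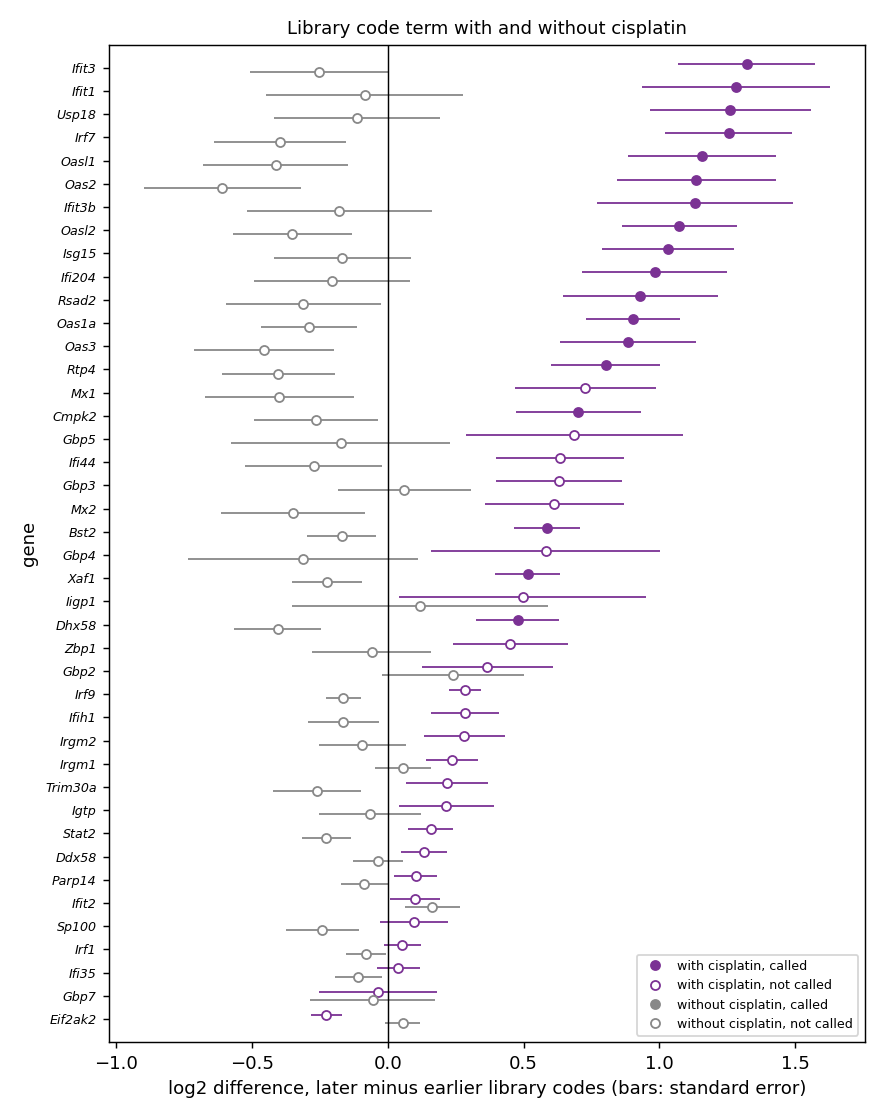
Difference between later and earlier library codes (log2 scale, ± SE) of the 42 genes in the 10 tumors given cisplatin and in the 10 tumors without it. Under cisplatin 18 genes were called higher, led in size by Ifit3 at 1.32, and without cisplatin none was called.

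The difference between the code terms with and without cisplatin was itself called, in the higher direction, for 11 members (0.798% of all genes): Irf7 (1.65), Irf9 (0.45), Dhx58, Ifit3, Oas1a, Oas2 (1.75), Oasl1, Oasl2, Bst2, Rtp4 and Xaf1. This count rested on single tumors. It was 0 without vehicle tumor 1 (the only vehicle tumor with an earlier code, and the one labelled differently), KW6002 tumor 1, KW6002 tumor 5, cisplatin tumor 1, cisplatin tumor 2 or cotreated tumor 3, and 1 without cisplatin tumor 4. Without vehicle tumors 4 or 5, KW6002 tumor 4, cisplatin tumor 5 or cotreated tumor 1 it was 4, 2, 6, 4 and 5. Without KW6002 tumor 1, the median code term of the 42 genes without cisplatin was -0.0036.

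In a comparison added after the values by tumor were seen, both arms given cisplatin were set against both arms without it, and 37 members were lower at earlier codes (9.48% of all genes) and 25 at later codes (9.19% of all genes). The medians were -1.19 and -0.51, and without KW6002 tumor 1 the earlier count was 31. In the test against the fold limit (glmTreat) 32 members were lower at earlier codes and 9 at later codes. The shares of all genes above belong to the main rule, and none is given for glmTreat. Isg15 differed by -2.26 at earlier and -1.06 at later codes, and Rsad2 by -2.62 and -1.37. Irf7 differed by -2.01 at earlier codes (SE 0.26) and by -0.36 at later codes (SE 0.21, edgeR adjusted p = 0.181). The differences were -0.55 and -0.42 for Irf1 and -1.79 and -1.28 for Zbp1, and the later minus the earlier difference was 0.13 for Irf1 (95% interval -0.08 to 0.34, edgeR adjusted p = 0.432) and 0.51 for Zbp1 (-0.13 to 1.15, edgeR adjusted p = 0.309). Ifi204 was the only member higher at later codes (0.95, SE 0.24, edgeR adjusted p = 0.00589). It measured 20.6, 23.9, 26.7, 69.0 and 61.7 CPM with cisplatin and 29.9, 37.7, 31.9, 37.8 and 72.9 CPM with cotreatment, against 23.7 to 34.8 CPM with vehicle, so the rise sits in cisplatin tumors 4 and 5 and cotreated tumor 5. What the codes stand for was not given, so differences between the runs in handling, mice or tumors cannot be told apart.

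Other genes of the pathway were read from a wider list. The 14 interferon ligand genes in the table gave at most 9 counts in any tumor, and none passed the filter. Ifnb1, the interferon made first by most cells, had 7, 9, 1 and 3 counts summed over the vehicle, KW6002, cisplatin and cotreated tumors, and Ifng had 12, 14, 11 and 0, while Ifnab had 6, 3, 17 and 26, Ifne 12, 13, 21 and 21 and Ifna2 0, 0, 3 and 8. These low counts went in both directions and were not tested. A count of 0 in a tumor allows up to 3 counts, or 0.0732 to 0.106 CPM by total counts without TMM, for counting error only. The receptor subunits Ifnar1 (92.9, 95.3, 86.6 and 87.6 CPM in vehicle, KW6002, cisplatin and cotreated tumors) and Ifngr1 (125.5, 123.5, 126.2 and 130.5 CPM) were not called in any of these comparisons with vehicle or cisplatin.

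Of 32 tested genes of the pathway, 1 rose and 2 fell with cisplatin, and 3 rose and 10 fell with cotreatment. Of all tested genes 6.01% rose and 4.57% fell with cisplatin, and 13.1% rose and 10.4% fell with cotreatment. Cgas, the sensor of cytosolic DNA, fell with both (-0.70 and -1.01), from 2.63 to 1.62 and 1.3 CPM. Sting1, its adaptor, had values of -0.22 with cisplatin, within the fold limit, and fell by 0.37 with cotreatment. Tlr7, an endosomal RNA receptor of myeloid cells, rose with both (0.70 and 0.90).

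Among 60 further interferon-induced genes outside the 42, 10 fell with cisplatin and 30 with cotreatment, and Oas1c alone rose, with cotreatment. The shares of all tested genes that fell were 4.57% and 10.4%, and Irf8 and Socs1 are counted here and among the 32 as well. Those falling with cotreatment included 12 of 18 genes associated with interferon gamma. Cxcl10, the chemokine that draws T cells, ranged from 10.4 to 20.8 CPM with vehicle, from 2.46 to 6.75 CPM with cisplatin and from 0.386 to 3.69 CPM with cotreatment. The vehicle tumors lay above all tumors of the other 2 groups, and Cxcl10 fell by 1.57 (SE 0.40) and 3.21 (SE 0.44). It was also lower with cotreatment than with cisplatin alone, by 1.64 (SE 0.43, edgeR adjusted p = 0.0316), with Psmb10, an immunoproteasome subunit. At later codes under cisplatin 11 of the 60 genes were higher (4.65% of all genes), Cxcl10 among them (1.21, SE 0.34).

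Markers of host cells moved with the same groups, and their part in these results was not tested. Red blood cell markers summed to 25.6 to 117 CPM in the 10 tumors without cisplatin and to 0 to 0.110 CPM in the 10 tumors given it (5 of 5 genes called lower in both arms). All 6 endothelial markers were lower with cisplatin and 5 with cotreatment, with sums of 140 to 204 CPM in vehicle, 68.9 to 95.8 CPM in cisplatin and 74.1 to 111 CPM in cotreated tumors. Neutrophil markers summed to 47.7 to 123 CPM with vehicle, 15.5 to 70.4 CPM with cisplatin (2 of 6 tested genes lower) and 16.4 to 35.5 CPM with cotreatment (4 of 6 lower), and Ly6g and Camp did not pass the filter. The 6 markers carried by all leukocytes summed to 517 to 607 CPM with vehicle, 540 to 753.7 CPM with cisplatin and 510 to 596 CPM with cotreatment, so these ranges overlapped. Macrophage markers (1282 to 1765, 1391 to 2394 and 1396 to 1784 CPM, with 1 of 10 genes higher with cisplatin, and 2 higher and 2 lower with cotreatment) and monocyte markers (98.3 to 135, 114 to 169 and 124 to 212 CPM, with 1 of 5 higher with cisplatin, and 1 higher and 1 lower with cotreatment) overlapped as well, with higher group means in both cisplatin arms. T and natural killer cell markers also overlapped, at 3.99 to 13.6, 5.69 to 22.5 and 5.18 to 12.5 CPM, with 0 of 12 genes lower with cisplatin by edgeR and 1 with cotreatment.

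Between the code runs under cisplatin, the leukocyte markers summed to 510 to 544 CPM at earlier and 593 to 753.7 CPM at later codes, the monocyte markers to 114 to 153 and 160 to 212 CPM, and the neutrophil markers to 15.5 to 20.4 and 21.8 to 70.4 CPM. None of these ranges overlapped, unlike those of the macrophage markers (1391 to 1736 and 1643 to 2394 CPM), of which 5 of 10 were called higher. The T and natural killer cell markers summed to 5.18 to 7.80 CPM at earlier and 5.78 to 22.5 CPM at later codes, with Gzma and Gzmb called higher. Without cisplatin tumors 4 and 5, which had the highest sums of T and natural killer cell markers in their arm (22.5 and 17.9 CPM) and also of neutrophil (44.0 and 70.4 CPM), fibroblast (14247 and 12195 CPM) and carcinoma and proliferation markers (6257 and 6039 CPM), and were left out after these sums were seen, 1 member remained called at later codes (median 0.46) and none was called lower with cotreatment than with cisplatin alone. In that last comparison the log2 fold change of Irf1 was -0.30 (edgeR adjusted p = 0.0173), within the fold limit, and that of Zbp1 -0.65 (edgeR adjusted p = 0.175).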

How the data were processed

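Poly(A) RNA of 20 LLC1 tumors was sequenced by the authors with stranded libraries. The values used are the deposited raw counts per Ensembl gene: per the labels and the study's methods, reads were aligned with STAR to mm10, unique reads were counted with HTSeq 0.6.1p1 in union mode after bcl2fastq 2.17.1.14, and Ensembl releases were named without saying which served these tumors. Genes were matched to symbols and GRCm38 positions in GENCODE M21 (35142 of 35226). The 42 members and the other lists were chosen with earlier results of these data known.

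Counts were fitted with edgeR 4.0.16 (TMM scaling, filterByExpr, robust quasi-likelihood test, 2-sided) over all 20 tumors with 4 group means, after the study's design and thresholds, and p-values were adjusted by Benjamini-Hochberg over 16665 genes (99.9% of counts). A gene was called at an adjusted p below 0.05 and a log2 fold change of at least 0.32 in size. Shares of all genes called are given for the main fits only, not for alternative fits or fits that leave tumors out. The code model added a later-code term for tumors with and another for tumors without cisplatin. DESeq2 1.42.0, other scalings and filters, code terms, code runs alone, a replicate block and leaving out each tumor were tried as alternatives. CPM and fold changes both use TMM scaling of the libraries (28.4M to 41M counts in total). Only the CPM limits given for a count of 0 use the total counts without TMM. The test was checked on simulated counts. Same-numbered tumors did not deviate together (correlations of -0.39 to 0.39, 12 of 30 over 0.1), so numbers were not taken as pairs. Named values were given for the 5 called members with the smallest adjusted p in a comparison and for Stat2, Irf7, Irf9, Irf1, Isg15 and Zbp1. For context the text also names, after their values were seen, members with the largest changes or widest spans. Promoter windows were not at hand for Zbp1, Oas2, Gbp4, Dhx58, Mx1, Mx2, Usp18, Iigp1, Ifi204, Parp14 and Rtp4. Of the wider lists, Ifna5, Ifna9, Ifna12, Ifna14, Ifna15, Ifnl2, Ifnl3, Trex1 and Krt1 were not analysed here. A gene of the pathway list is not reported here.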

Additional observations from a re-analysis of the deposited data

Results flagged for a closer look

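In 5 of 168 sets of 5 tumors (42 genes in 4 groups), 1 tumor stood farther from the rest than Dixon's 95% limit allows, where chance alone gives about 8.4 such sets. Zbp1 was low in cisplatin tumor 2, at 7.34 CPM against 12.9 to 14.3 CPM in the other 4. Ifi204 was high in cotreated tumor 5, at 72.9 CPM against 29.9 to 37.8 CPM. Igtp was low in cotreated tumor 2, at 8.82 CPM against 11.5 to 12.3 CPM. Parp14 was high in KW6002 tumor 1, the tumor with high B cell and T cell markers, at 75.5 CPM against 60.6 to 63.4 CPM. Eif2ak2 was low in KW6002 tumor 3, at 86.8 CPM against 91.6 to 93.2 CPM.

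For 11 genes the difference between later and earlier library codes was itself different, by edgeR's test, in tumors given cisplatin and in tumors without it. The log2 difference with minus that without cisplatin was 1.75 for Oas2, 1.65 for Irf7, 1.57 for Ifit3 and 1.57 for Oasl1, 1.42 for Oasl2, 1.204 for Rtp4, 1.19 for Oas1a, 0.88 for Dhx58, 0.76 for Bst2, 0.74 for Xaf1 and 0.45 for Irf9. All 11 calls were lost without any one of 6 tumors (vehicle 1, KW6002 1 and 5, cisplatin 1 and 2, cotreated 3), and the cause of the difference was not tested.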

How the results depend on the processing

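Of 722 summary values under alternatives, 659 were labelled kept and 63 moved. A count was kept within a fixed ratio of the main count. A median or mean level was kept within the SD between tumors (0.33 for medians), with no check of sign. Kept values could therefore differ, as 18 calls did from 26 for both cisplatin arms at later codes. Of 6757 values for single genes, 0 changed sign where the main or the alternative fit called the gene. Sign changes between fits that did not call it were not included. With a stricter test against the fold limit (glmTreat) the calls were 1 (cisplatin against vehicle), 0 (cotreatment against cisplatin), 0 (later codes under cisplatin), 0 (difference of the code terms) and 10 (both cisplatin arms at later codes, where 26 members were called in either direction). With no count filter they were 8 for cisplatin and 1 for cotreatment against cisplatin. Separate code terms gave 28 calls and a median of -1.14 for cisplatin and a median of -1.32 for cotreatment. Both are differences at earlier codes, where vehicle has 1 tumor. Later codes alone gave 5 calls for cisplatin, 16 (median -0.59) for cotreatment, 0 against cisplatin and 15 (median -0.65) against KW6002, and earlier codes alone 0 against cisplatin. A common code term gave 1 call for cotreatment against cisplatin, as did fitting both groups alone. DESeq2 gave 1 for the interaction and 19 for the difference of the code terms. The replicate block, over numbers that do not pair tumors, gave 1 for cotreatment against cisplatin, 5 with a median of 1.05 for later codes under cisplatin, a median of 0.27 without cisplatin and 0 for the difference of the code terms, and it moved no other count. Without cisplatin tumors 4 and 5, chosen after the marker sums were seen, the calls were 0 for cotreatment against cisplatin, 1 for later codes under cisplatin and 0 for the difference of the code terms. Leaving out each tumor in turn gave 7 to 16 calls for cisplatin, 30 to 36 for cotreatment, 0 to 13 for cotreatment against cisplatin, 35 to 38 against KW6002, 0 to 2 for the interaction (2 without cotreated tumor 4), 5 to 20 for later codes under cisplatin and 0 to 13 for the difference of the code terms. The cause of these changes was not tested. Depth limits the ligand genes, and the 2 members with a mean under 100 counts in vehicle tumors, Ifit3b lowest at 47.6.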
